A study of Mus musculus with 15 samples.

Results

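Goblet cell and mucus genes were examined in the colon of mice fed ad libitum (AL), diet restricted (DR), or restricted and then returned to ad libitum feeding (DR-AL). The group holds 9 genes, found by their symbols among 33603 loci: Muc2, Muc13, Tff3, Fcgbp, Agr2, Zg16, Spdef, Atoh1 and Spink4. All 9 had 1 locus each and enough counts to be tested in colon, where 18242 named loci had at least 1 count. RNA-Seq was carried out on colon, liver, epididymal fat, hypothalamus and hippocampus of male C57BL/6 mice, an inbred strain, with no transgene or deletion. AL mice had free access to food and were 5 months of age, and DR mice of the same age received 60% of the AL intake for 1 month from 4 months of age. DR-AL mice had the same month of restriction, then 2 months of free feeding, and were 7 months of age, so the feeding history and the age of this group cannot be told apart. Each of the 15 libraries held RNA pooled from 5 mice of 1 tissue and diet, and the colon RNA came from the mucosa.

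Mucus covers the colon as a gel made by goblet cells, secretory cells of the epithelium. Muc2 is the gel-forming mucin: it is folded in the endoplasmic reticulum, heavily glycosylated in the Golgi, packed into granules and released to form a dense layer that keeps bacteria off the epithelium. The transcription factor Atoh1 commits progenitors to the secretory lineage, against Notch signalling, and Spdef acts after it in goblet cell maturation. A pool of whole mucosa measures RNA per tissue, so more goblet cells and more RNA per goblet cell cannot be told apart in any value given here.

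The 9 genes made up 1.66%, 1.97% and 2.13% of the counts on named loci in the AL, DR and DR-AL colon libraries, of a total of 26554699, 33422262 and 25043727 counts. Muc2, Fcgbp, Zg16 and Muc13 carried 87.7%, 87.4% and 88.2% of the counts on the 9 genes. The share was thus lowest in AL and highest in DR-AL, 1.28-fold above AL, and the Wilson 95% intervals, 1.66 to 1.67%, 1.96 to 1.97% and 2.13 to 2.14%, did not overlap. All intervals in this text cover counting error only. Because each diet gave 1 colon library, no replicate backs any difference, the spread between mice is not measured, and each comparison is between libraries. Unless diets are named, values below run in the order AL, DR, DR-AL.

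Promoter sequence was taken from RefSeq for GRCm38.p6, which gave 7 start sites for 6 of the 9 genes: Muc2, Muc13, Fcgbp, Agr2, Spdef and Atoh1. On that build Muc2 (chr7:141690340-141754691), Fcgbp and Zg16 lie on chromosome 7, Tff3 and Spdef on 17, Muc13 on 16, Agr2 on 12, Atoh1 on 6 and Spink4 on 4. The windows of Muc2 and Spdef are shown because both genes were called higher in DR-AL against each of the other diets, and that of Agr2 because it was the member with the highest fold in DR against AL. Each runs from 250 bases before an annotated start to 50 after it, at chr7:141690090-141690389 on the plus strand for Muc2, chr17:27728902-27729201 on the minus strand for Spdef and chr12:35992675-35992974 on the plus strand for Agr2. Capitals mark the E-box CAGCTG, letters that Atoh1-type factors can bind, and GGAT, the core letters bound by Spdef, or its reverse complement ATCC.
Muc2: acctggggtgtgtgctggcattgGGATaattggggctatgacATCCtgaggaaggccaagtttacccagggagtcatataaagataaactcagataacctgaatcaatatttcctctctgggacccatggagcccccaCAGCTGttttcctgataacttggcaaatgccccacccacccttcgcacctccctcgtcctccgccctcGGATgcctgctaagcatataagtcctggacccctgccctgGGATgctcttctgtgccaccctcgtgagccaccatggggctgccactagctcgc
Spdef: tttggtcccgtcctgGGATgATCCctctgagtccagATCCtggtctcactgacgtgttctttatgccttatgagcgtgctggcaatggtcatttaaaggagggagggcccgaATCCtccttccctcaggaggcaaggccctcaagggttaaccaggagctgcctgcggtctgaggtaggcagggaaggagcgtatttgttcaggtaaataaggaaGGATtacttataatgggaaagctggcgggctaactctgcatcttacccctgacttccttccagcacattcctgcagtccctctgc
Agr2: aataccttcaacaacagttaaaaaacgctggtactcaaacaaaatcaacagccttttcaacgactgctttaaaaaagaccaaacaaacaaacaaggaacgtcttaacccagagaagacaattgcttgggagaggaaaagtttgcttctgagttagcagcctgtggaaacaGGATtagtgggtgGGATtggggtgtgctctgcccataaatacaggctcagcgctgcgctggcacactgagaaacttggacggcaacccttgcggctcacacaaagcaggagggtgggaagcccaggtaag
The Muc2 window held 1 CAGCTG, 112 bases before the start, and 4 GGAT on either strand, the nearest of them 4 bases before it. The Fcgbp window also held 1 CAGCTG, and the other 5 windows held none. CAGCTG was present in 16.3% and GGAT in 79.6% of all 32851 promoter windows of the same length, counted on both strands, so GGAT is common. Spdef had 5 GGAT, Agr2 2 and Atoh1 none. A match of letters is a description of the window and not a binding site.

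Per transcript length, the lectin Zg16 and the trefoil peptide Tff3 stood above the other members in every colon library, and the transcription factors stood lowest. Zg16, which binds the wall of Gram-positive bacteria, had 9830, 11226 and 12271 FPKM, a level corrected for transcript length and library depth. Tff3, a small peptide secreted with the mucins, had 3690, 3868 and 4765 FPKM. Fcgbp, Agr2, Muc13, Spink4 and Muc2 came next, between 493 FPKM (Muc2, AL) and 1531 FPKM (Fcgbp, DR-AL). In this middle set the order changed with diet: Agr2 lay above Muc13 in AL and DR and below it in DR-AL, and the FPKM ranges of neighbouring genes over the 3 diets overlapped. Atoh1 had 42.1 to 57.7 FPKM and Spdef 32.9 to 48.2 FPKM, ranges that also overlapped. By counts, which rise with transcript length, the rank of Muc2 among all named loci was 15, 9 and 7.

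**Figure D1:**
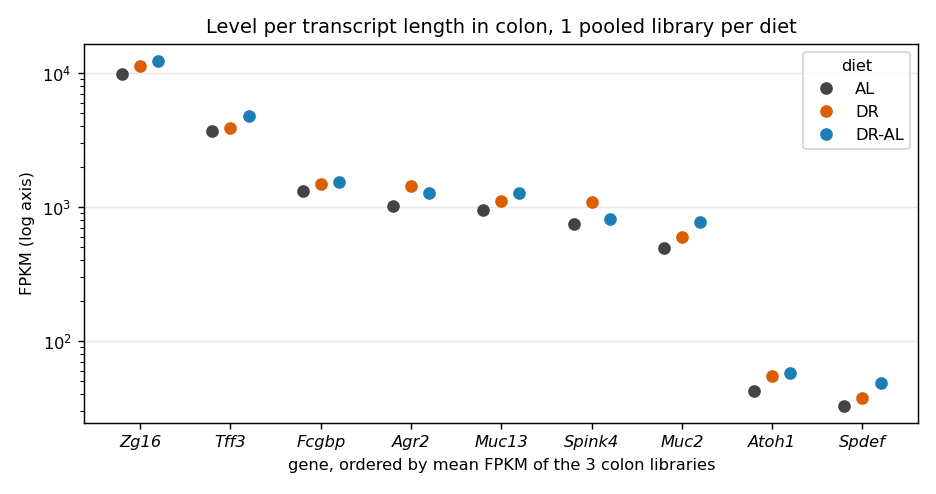
FPKM (log axis) of the 9 genes in the 3 colon libraries, 1 point per pooled library, genes ordered by their mean. Zg16 reached 12271 FPKM in DR-AL and Spdef was lowest at 32.9 FPKM in AL.

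To ask whether restriction and the later return to free feeding altered these genes, counts scaled to library totals were compared. A gene was called where the Z test on square roots of counts gave a Benjamini-Hochberg adjusted p under 0.05 over the 18242 loci and the log2 fold change was at least 0.32 in size. In DR against AL, 2 of 9 genes were called higher, Agr2 and Spink4, and 0 of 9 lower, where 9.04% of all tested loci were called higher and 10.6% lower. All 9 lay above 0 on the log2 scale, as did 54.6% of the 10503 loci with a mean of at least 100 counts. The median log2 fold change was 0.25 over the 9 genes and 0.028 over those 10503 loci. Scaled to pan-epithelial genes instead of library totals, the median of the 9 genes was 0.049 and Tff3 and Spdef lay below 0. In DR-AL against AL, 4 of 9 were called higher, Muc2, Muc13, Spdef and Atoh1, and 0 of 9 lower, beside 5.83% and 8.5% of loci. All 9 again lay above 0, beside 49.7% of loci, and the median log2 fold change was 0.32 against -0.0017 for the loci with at least 100 counts. These 2 comparisons share the AL library, so their folds are not independent.

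In DR-AL against DR, 2 of 9 were called higher, Muc2 and Spdef, and 1 of 9 lower, Spink4, beside 6.78% and 7.67% of loci. Here 5 of 9 lay above 0, beside 45.2% of loci, with a median log2 fold change of 0.083 against -0.021. On deposited FPKM values the share of called loci that were called higher moved, from 40.7% to 54.4% with a pseudocount of 0.1 and 59.5% with a pseudocount of 1 in DR-AL against AL, and from 46.9% to 57.5% and 63.2% in DR-AL against DR. The Z test allows for counting error alone. An exact test in edgeR with a coefficient of variation of 0.1 between libraries called 0 of 9 genes in each comparison, and at an unadjusted p under 0.05 it marked 2 (Agr2, Spink4), 2 (Muc2, Spdef) and 1 (Muc2). No member reached a fold of 2.

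**Figure D2:**
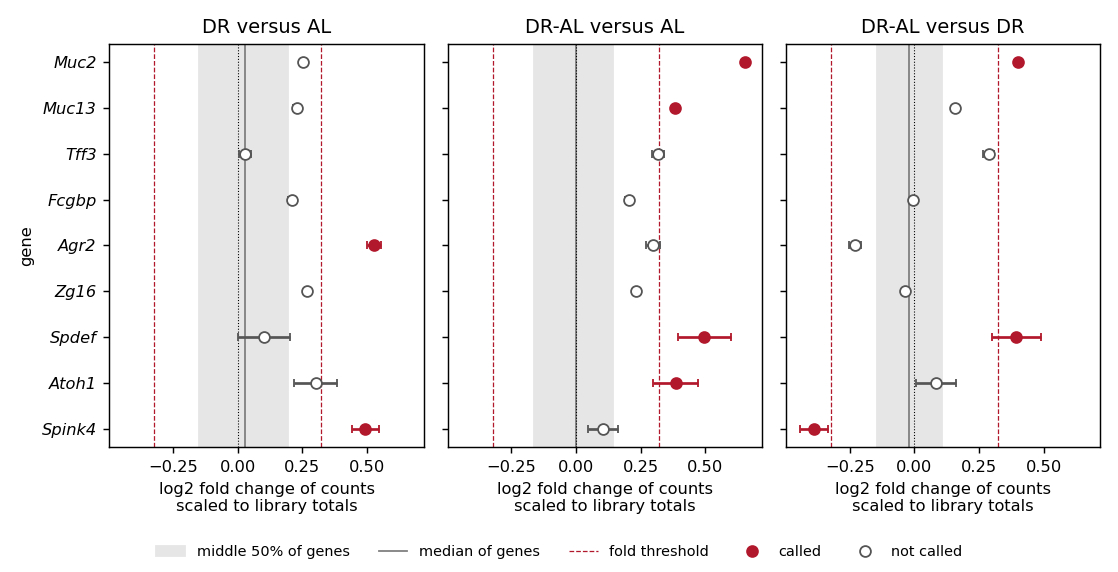
Log2 fold change of the 9 genes in each colon comparison, on counts scaled to library totals, with exact 95% counting intervals; filled red points were called, the dashed lines mark the threshold of 0.32 in size, and grey marks the interquartile range of loci with a mean of at least 100 counts. Muc2 in DR-AL against AL, at 0.65, lies farthest from 0, and Spink4 moves from 0.49 in DR against AL to -0.39 in DR-AL against DR.

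Among the secreted mucus components, Muc2 had the highest fold in DR-AL. It had 95143, 142449 and 140976 counts, or 3583, 4262 and 5629 CPM, the count scaled so that the named loci of each library have the same total. The AL library was lowest and DR-AL highest. Muc2 rose 1.57-fold in DR-AL against AL (exact 95% interval 1.56 to 1.58) and 1.32-fold in DR-AL against DR (1.31 to 1.33). The step from AL to DR, 1.19-fold, was below the threshold. In DR-AL against AL, Muc2 stood at percentile 98.9 of the 10503 loci.

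Fcgbp, a large protein with von Willebrand domains that is part of the mucus gel, had 3080, 3558 and 3547 CPM. Both later values exceeded AL, by 1.16-fold and 1.15-fold, without reaching the threshold, and the ratio of DR-AL to DR was 1.00 (0.99 to 1.01). Zg16 behaved likewise, with 5111, 6147 and 5999 CPM, 1.20-fold and 1.17-fold over AL. For Fcgbp and Zg16 the direction of DR-AL against DR depended on the scale, as it was slightly negative on counts and positive on FPKM, at 0.054 and 0.13 on the log2 scale. The median of the loci with a mean of at least 100 counts moved up too, from -0.021 on counts to 0.074 on FPKM with a pseudocount of 0.1. Fcgbp lay below that FPKM median and Zg16 above it. Tff3 had 1039 CPM in AL and 1061 CPM in DR, a ratio of 1.02. Its 1294 CPM in DR-AL was 1.24-fold over AL, just under the threshold, and passed it under DESeq and TMM scaling.

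Relative to its companions Muc2 was highest in DR-AL. There were 1.16, 1.20 and 1.59 Muc2 counts per Fcgbp count, with intervals of 1.15 to 1.17, 1.19 to 1.21 and 1.57 to 1.60. The Muc2 to Zg16 ratio was 0.70, 0.69 and 0.94, and the Muc2 to Tff3 ratio 3.45, 4.02 and 4.35. These ratios of counts within a library do not depend on how libraries are scaled, and they do not compare the amounts of transcript of different genes.

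The transmembrane mucin Muc13, which is made by absorptive cells as well as goblet cells, had 2778, 3251 and 3625 CPM. DR was 1.17-fold over AL and was not called, whereas Muc13 rose 1.30-fold in DR-AL against AL (1.29 to 1.32). There were 1.29, 1.31 and 1.55 Muc2 counts per Muc13 count.

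Agr2 and Spink4 were highest in DR. Fcgbp and Zg16 had the same order in CPM, but with DR-AL to DR ratios of only 1.00 and 0.98. Agr2, a protein disulfide isomerase of the endoplasmic reticulum needed to make Muc2, had 18993, 34438 and 22003 counts (715, 1030 and 879 CPM). It rose 1.44-fold in DR against AL (1.42 to 1.47). In DR-AL it was 1.23-fold over AL and 0.85 times DR, neither of which was called. Spink4, a secreted peptide with the fold of a Kazal-type protease inhibitor, had 171, 240 and 183 CPM. It rose 1.41-fold in DR against AL (1.36 to 1.46) and fell to 0.76 times DR in DR-AL (0.74 to 0.79), with DR-AL 1.07-fold over AL. For each Tff3 count there were 0.69, 0.97 and 0.68 Agr2 counts and 0.16, 0.23 and 0.14 Spink4 counts. DR was highest in both ratios, but Tff3 was itself 1.24-fold over AL in DR-AL. The Spink4 ratio had an interval of 0.159 to 0.169 in AL, above that of 0.137 to 0.146 in DR-AL. With Muc2 instead of Tff3, AL and DR-AL lay apart, at 5.01, 4.14 and 6.41 Muc2 counts per Agr2 count.

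Both transcription factors were highest in DR-AL. Atoh1 had 1916, 2972 and 2359 counts (72.2, 88.9 and 94.2 CPM). It rose 1.31-fold in DR-AL against AL (1.23 to 1.39), and its 1.23-fold in DR against AL (1.16 to 1.31) was just under the threshold and passed it on FPKM, at 0.37 with a pseudocount of 0.1 and 0.36 with a pseudocount of 1. Spdef had 1367, 1846 and 1817 counts (51.5, 55.2 and 72.6 CPM). It rose 1.41-fold in DR-AL against AL (1.31 to 1.51) and 1.31-fold against DR (1.23 to 1.40), while the DR to AL ratio of 1.07 had an interval of 1.00 to 1.15. There were 0.71, 0.62 and 0.77 Spdef counts per Atoh1 count.

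The rest of the mucus pathway was read from lists of genes for each step, as counts of called genes. Over all tested loci the shares called higher and lower were 9.04% and 10.6% in DR against AL. They were 5.83% and 8.5% in DR-AL against AL, and 6.78% and 7.67% in DR-AL against DR. A count near these shares does not set a list apart from other loci, and the same holds for the marker lists further below. Of 8 other secreted goblet products tested, 0 were called higher and 2 lower in DR against AL, and the same in DR-AL against AL. The list median in DR-AL against AL was 0.18 on the log2 scale, with Tff2, Muc6 and Muc5b at 13 counts or fewer. Over only the 5 products averaging 100 counts or more, this median was -0.22. Both that fell were antimicrobial proteins: Retnlb (RELM-beta) had 1106, 159 and 316 counts, and Ang4 (angiogenin 4, one of a family of near-identical genes whose reads may be shared) had 3386, 807 and 1084. On the log2 scale Retnlb fell by 3.13 in DR and fell by 1.72 in DR-AL against AL, and Ang4 fell by 2.40 and fell by 1.56. In DR-AL against DR, 3 were called higher and 0 lower, with Retnlb at 1.40, Ang4 at 0.84 and Klk1, a kallikrein protease, at 0.40. Clca1, the mucus metalloprotease that the table lists under its older symbol Clca3, had 196582, 243832 and 214523 counts, log2 fold changes between -0.02 and 0.23, and no call. Muc5ac and Tff1, mucus genes of the stomach, had 0 counts in all 3 colon libraries.

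Of the other membrane mucins, 3 were tested. In DR against AL 2 rose, Muc4 (0.49 on the log2 scale) and Muc20 (0.78, at 45 to 98 counts), and in DR-AL against AL all 3 rose, including Muc1 at 0.63. In DR-AL against DR 1 rose, Muc1 at 0.50, and 0 fell.

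Of 8 genes of mucin folding and cross-linking tested, 2 rose and 1 fell in DR against AL, 5 rose and 0 fell in DR-AL against AL, and 1 rose and 1 fell in DR-AL against DR. Creb3l1, a transcription factor activated from the endoplasmic reticulum membrane, had 3984, 8346 and 4926 counts, was 0.73 and 0.39 over AL and -0.34 in DR-AL against DR on the log2 scale, and like Agr2 it was highest in DR. Pdia6, a disulfide isomerase, rose by 0.45 in DR and 0.65 in DR-AL over AL. Tgm3, a transglutaminase that cross-links Muc2, had 66881, 84170 and 89088 counts, a log2 difference of -0.00013 in DR against AL, and rose by 0.50 in DR-AL against each of the others. Creb3l4 fell by 0.42 in DR against AL.

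The enzymes of mucin O-glycosylation did not share one direction. Of 23 tested, 2 rose and 6 fell in DR against AL, 2 rose and 4 fell in DR-AL against AL, and 4 rose and 2 fell in DR-AL against DR, with a median log2 fold change of -0.14, -0.14 and -0.0028. The 6 that fell in DR against AL include Chst5, at only 3, 0 and 0 counts. The 4 that rose in DR-AL against DR include St6galnac1, at only 17, 13 and 25 counts. Among the enzymes with a mean of at least 100 counts, the branching enzymes Gcnt4 and Gcnt3 had the largest falls in DR against AL, where Gcnt4 fell by 1.63 and Gcnt3 fell by 0.76. Gcnt4 also fell by 1.49 in DR-AL against AL, with 377, 153 and 126 counts by diet. B4galnt2, which makes the Sd(a) antigen, fell by 0.77 in DR-AL against AL. The sulfotransferase Chst4 rose by 0.70 over AL in both groups, with 1356, 2780 and 2079 counts. Fut2, the fucosyltransferase of mucosal secretions, rose by 0.38 in DR against AL and fell by 0.49 in DR-AL against DR. Galnt3, which adds the first sugar of the chain, rose by 0.41 in DR-AL against AL. The sialyltransferase St3gal4 fell by 0.64 in DR-AL against DR, where Gcnt3 and the sulfotransferase Gal3st2 rose by 0.52 and 0.37.

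In the list for the secretory lineage and Notch, 6 of 17 rose and 0 fell in DR against AL, 5 rose and 1 fell in DR-AL against AL, and 0 rose and 2 fell in DR-AL against DR. Foxa2, a factor that acts on goblet cell genes, rose by 0.77 in DR and 0.45 in DR-AL over AL, with 592, 1267 and 764 counts. The receptors Notch1 and Notch2 rose by 0.49 in DR and by 0.52 in DR-AL, respectively, over AL. Cdx2, the intestinal identity factor, fell by 0.43 in DR-AL against AL. The Notch ligand Dll1 fell by 0.55 and Gfi1, a factor downstream of Atoh1, fell by 0.45 in DR-AL against DR. For mucus granule release, 1 of 11 rose and 2 fell in DR against AL, 1 rose and 1 fell in DR-AL against AL, and 1 rose and 1 fell in DR-AL against DR. The goblet cell channel Best2 fell by 0.55 in DR against AL and rose by 0.65 in DR-AL against DR. Rep15, a Rab15-binding protein of goblet cells, rose by 0.39 in DR, and the calcium pump Atp2c2 rose by 0.33 in DR-AL, both against AL. Sytl4, a granule-docking protein, fell by 0.40 in each group against AL, and Rab3d, a granule GTPase, fell by 0.43 in DR-AL against DR.

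**Figure D3:**
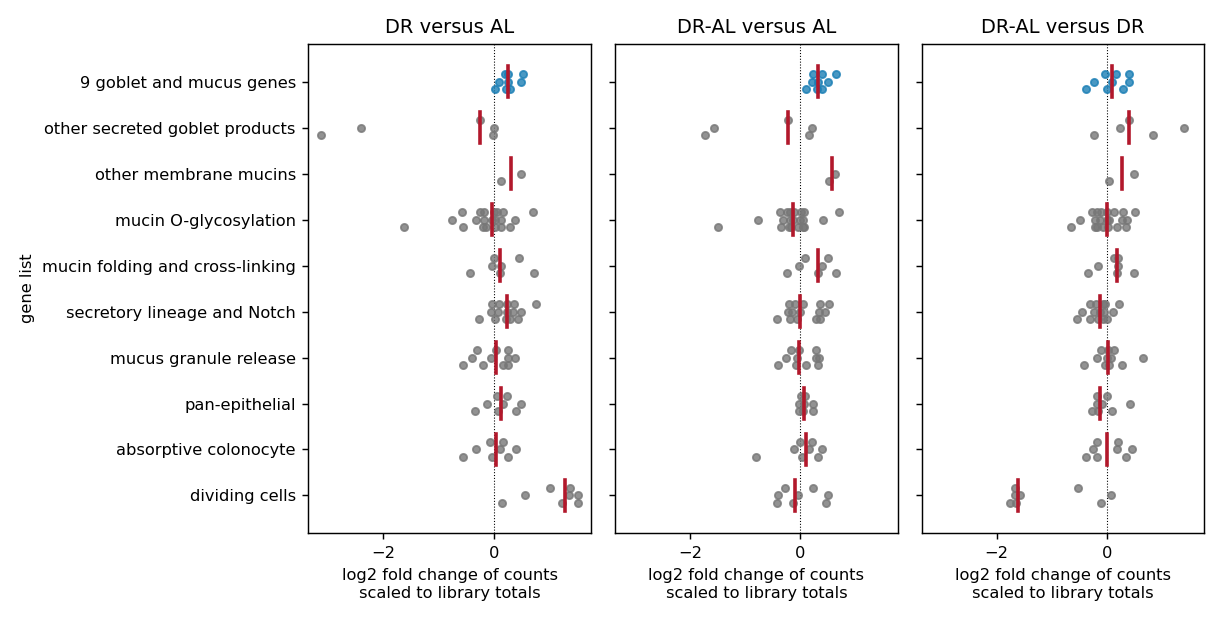
Log2 fold change of every gene with a mean of at least 100 counts in 10 lists, 1 point per gene and 1 panel per colon comparison, on counts scaled to library totals; blue marks the 9 goblet and mucus genes and red bars the list medians. Retnlb and Ang4 lie far to the left of the other secreted products in both panels against AL, and dividing-cell genes lie to the right in DR against AL.

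The tissue label and other cell types were checked by marker lists. Genes of other cell types also moved between the colon libraries, and their part in the values above was not tested. Of 8 pan-epithelial genes, 2 rose and 1 fell in DR against AL, 0 were called in DR-AL against AL, and 1 rose in DR-AL against DR, with a summed level of 15772, 18140 and 16641 CPM. Krt19 and Krt18 rose by 0.50 and 0.40 in DR, and Cldn3 fell by 0.35. Scaling to these genes lowered the median of the loci in DR against AL by 0.20 on the log2 scale and turned Tff3 and Spdef to -0.17 and -0.10, while Agr2 stayed called and Spink4 did not. In DR-AL against AL, Muc2 and Spdef stayed called on that scale and Muc13 and Atoh1 did not, and in DR-AL against DR it raised the median of the loci by 0.12.

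Dividing-cell genes rose in DR against AL, 7 of 8 with a median log2 fold change of 1.29, and Mki67 had 1206, 4394 and 1031 counts. In DR-AL against AL 2 rose and 2 fell, and in DR-AL against DR 0 rose and 6 fell. Of 7 stem and crypt base genes, 4 rose in DR and 2 in DR-AL against AL, including Ascl2 at 0.95 and 0.77, and 2 fell in DR-AL against DR. Of 8 absorptive colonocyte genes, 1 rose and 1 fell in each comparison against AL, where Car1 fell by 0.55 and fell by 0.80, and 2 rose and 1 fell in DR-AL against DR. The summed level of this list was 14950, 13807 and 13522 CPM, of which Car1 was 6160, 4203 and 3535 CPM. Slc26a3 rose by 0.40 in DR and Aqp8 by 0.38 in DR-AL, both against AL. The median of the list in these comparisons was 0.040 and 0.094 on the log2 scale, so the sum followed Car1 and not the list as a whole.

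Of 7 enteroendocrine genes, 0 rose and 1 fell in DR against AL, 3 rose in DR-AL against AL and 4 rose in DR-AL against DR, where the hormone gene Gcg rose by 0.74. Of 6 tuft cell genes, 5 fell in DR against AL, 1 fell in DR-AL against AL and 5 rose in DR-AL against DR, and Trpm5 had 411, 231 and 334 counts. Immune genes were also lowest in DR, 5 of 8 lower in DR and 7 of 8 higher in DR-AL against DR, with Ptprc at 273, 134 and 344 counts, and 4 rose in DR-AL against AL.

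Genes of smooth muscle and fibroblasts had summed levels far below those of the pan-epithelial list. Smooth muscle genes summed to 69.7, 93.2 and 37.9 CPM, with 4 of 8 higher in DR, 6 of 8 lower in DR-AL against AL and 7 of 8 lower in DR-AL against DR. Of 6 fibroblast genes, 4 rose in DR, 1 rose and 1 fell in DR-AL against AL, and 1 rose and 4 fell in DR-AL against DR, with sums of 26.7 to 37.9 CPM.

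Markers of position along the gut differed as well. Of 6 distal colon genes, 2 rose and 2 fell in DR against AL, 4 rose and 1 fell in DR-AL against AL, and 3 rose and 1 fell in DR-AL against DR. Their summed level was 908, 1327 and 2401 CPM, lowest in AL and highest in DR-AL as Muc2 CPM was. It was mostly Atp12a, a proton pump of the distal colon, with 12960, 25929 and 45278 counts. Hoxb13 had the same order, at 315, 457 and 471 CPM, but the list did not share it. Hoxd13 had no call, at 61.8, 67.1 and 60.7 CPM, and Hoxd12 was lowest in DR-AL, at 42 counts. Scnn1b and Scnn1g were lowest in DR and highest in DR-AL. Of 7 small intestine genes, 0 rose and 1 fell in DR, 2 fell in DR-AL against AL and 1 rose and 1 fell in DR-AL against DR, and the sum stayed between 80.4 and 90.8 CPM, with Sis at 271, 76 and 121 counts. The stretch of colon sampled from each mouse is not given in the sources used here.

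The genes whose fold changes in colon lay nearest to those of Muc2, among 5180 loci with a mean of at least 1000 counts, were Hspa4l, Ubr4, Syvn1, Saa1 and Npas2, at distances of 0.052 to 0.087 on the log2 scale over the 2 comparisons against AL. Of the other members, Spdef was nearest at rank 43, then Muc13 at 79 and Atoh1 at 86, and Spink4 was farthest at 1689. Over all 15 libraries the 5 genes most like Muc2 on log2(CPM + 1), among 10503, were Dmbt1, Cdh17, Tspan1, Clca3 and Muc13, with Pearson r of 0.99 to 1.00. That measure compares 5 tissues and is set by the contrast of the 3 colon libraries with the other 12.

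In the other tissues the 9 genes were read as a reference. For 9 of 9 genes all 3 colon libraries lay above all 12 others in CPM, as they did for 12.1% of 21196 loci. The lowest colon level over the highest level elsewhere ran from 44.9-fold for Spdef to 674-fold for Muc13, and was 379-fold for Muc2. Atoh1, with a ratio of 473, had 0 counts in 8 of the 12 libraries and at most 4 counts elsewhere.

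The low counts outside colon were uneven by library. The 9 genes together had 823 counts in AL fat against 100 in DR and 187 in DR-AL fat, and 429 in AL hypothalamus against 75 and 69. The median over the 9 genes of their hypothalamus level, as a share of the colon level of the same diet, was 0.0848%, 0.0030% and 0.0018%. For 110 other genes it was 0.0955%, 0.0332% and 0.0257%. Those genes had at least 100 CPM in each colon library and were chosen to lie under 1 CPM in every liver and hippocampus library. The 9 genes were not held to that limit, so the shares are not a like comparison. Spdef had 34, 24 and 26 counts in hypothalamus, Fcgbp 74, 59 and 39 in hippocampus, Spink4 18, 18 and 22 in fat, and Tff3 104, 14 and 210 in liver. The source of these counts was not tested, and at this depth they are at most 2.23% of the colon level.

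**Figure D4:**
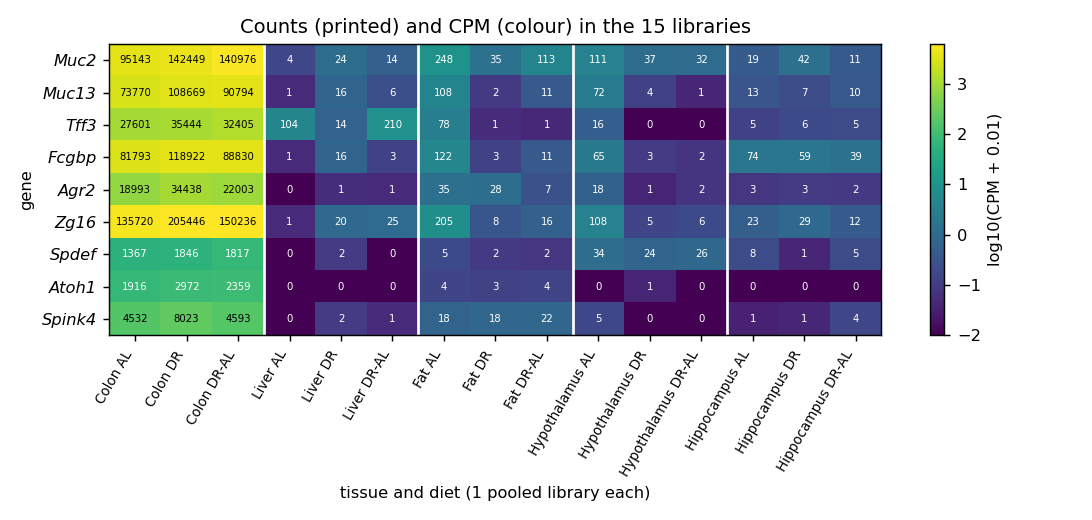
Counts (printed) and CPM (colour, log10 of CPM + 0.01) of the 9 genes in 15 pooled libraries, ordered by tissue and diet. The 3 colon columns stand above the rest for every gene, and the AL fat and AL hypothalamus columns hold 823 and 429 counts in sum, more than the other diets of the same tissue.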

How the data were processed

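According to the methods, the authors depleted ribosomal RNA from pooled RNA, sequenced stranded paired-end libraries, trimmed and aligned reads with Strand software, removed duplicate reads and quantified loci with the DESeq algorithm. Removing duplicates lowers the counts of abundant short transcripts most. The methods name mm10, whereas the submitters' processing notes name mm9 and DESeq2. Only 13.6% of single-name loci overlapped their GRCm38 position, so positions and promoters printed here come from RefSeq for GRCm38.p6. The authors deposited whole-number counts and FPKM values for each locus in the 15 libraries, whose counts on named loci ran from 21767088 to 40500130 (median 26554699). Loci without a gene name, 1.03 to 1.26% of colon counts, were left out.

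The test was the Z test of the study's methods, on counts divided by library totals, over named loci with at least 1 count in colon. Fold changes used a pseudocount of 0.5 on scaled counts. Ratio intervals are exact Clopper-Pearson, shares Wilson. With 1 library per group, edgeR's quasi-likelihood test has no residual degrees of freedom. Exact tests in edgeR 4.0.16 with a coefficient of variation of 0.1, or an estimated 0.164, were therefore alternatives. The estimate took the 3 colon libraries as 1 group, so differences between diets count in it as spread. Other alternatives were DESeq2 1.42.0 and TMM scaling, pan-epithelial scaling, other filters, folds and pseudocounts, and FPKM. The Z test and the exact test were tested on simulated counts. Samples were grouped by their titles. The 9 genes and the lists were chosen with earlier results of these data known. Named besides the 9 genes were up to 2 genes per list and direction, those of largest fold among called genes averaging 100 counts or more in colon, the genes most like Muc2, and those needed to say which are at 0. List genes were matched by Entrez number, and loci merged over several genes were left out. Muc20, Hoxd12, Hoxd13, Chst5 and St6galnac1 were named after their values were seen. One marker list is not reported here. Analyses used Python 3.11.15 and R 4.3.3.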

Additional observations from a re-analysis of the deposited data

Results flagged for a closer look

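In 5 instances a gene called higher in colon had lower counts in another tissue under the same contrast, at levels far below colon. The difference between tissues was not tested, and each value compares 1 library with 1. In DR-AL against AL, where the colon log2 fold change of Muc2 was 0.65, Muc2 was at -1.19 in fat (113 against 248 counts) and at -1.85 in hypothalamus (32 against 111 counts). For Muc13, with 0.38 in colon, the value was -3.30 in fat (11 against 108 counts) and -5.66 in hypothalamus (1 against 72 counts, a CPM ratio of 0.0132 with an exact interval of 0.00033 to 0.076). In DR-AL against DR, Muc2 was at 0.40 in colon and at -1.58 in hippocampus (11 against 42 counts). In 4 of the 5 the higher library was AL fat or AL hypothalamus, the libraries with the highest sums of the 9 genes in their tissue. Only changes opposite to the colon call were kept, so in DR-AL against AL the higher library had to be AL. Those sums also include the Muc2 and Muc13 counts given here.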

How the results depend on the processing

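No paired analysis was possible because each tissue and diet has 1 pooled library, so none was left out. Of 152 alternative values that answer a comparison 114 stayed within the limits set and 38 moved. The 114 include counts of 0 genes called lower that stayed at 0. Values of single genes were tallied only under other scalings, FPKM and another pseudocount. Of these 216 values 194 were unchanged in direction and call, 8 became called, 4 lost their call and 10 changed sign. A pseudocount of 5 could hardly move genes whose lowest colon count was 1367, so those values add little. The tally leaves out the exact tests and the fold of at least 2, under which no member stayed called.

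With pan-epithelial scaling, 1 gene was called higher in DR against AL and 2 in DR-AL against AL, 0 were called lower in DR-AL against DR, and the medians were 0.049, 0.24 and 0.21. Tff3 (-0.17) and Spdef (-0.10) changed sign in DR against AL, and Fcgbp (0.12) and Zg16 (0.089) in DR-AL against DR. Fcgbp was also at 0.015 under DESeq and 0.014 under TMM scaling, and on FPKM with either pseudocount Fcgbp was at 0.054 and Zg16 at 0.13. The TMM median in DR-AL against AL was 0.34. FPKM medians were 0.21 in DR against AL and 0.37 in DR-AL against AL. Medians of the loci with a mean of at least 100 counts moved as well. With pan-epithelial scaling they were -0.17 in DR against AL, -0.079 in DR-AL against AL and 0.10 in DR-AL against DR. On FPKM with a pseudocount of 0.1 they were 0.0067, 0.070 and 0.074 in the same order. Under TMM scaling the loci median in DR-AL against AL was 0.022.

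The exact test with a coefficient of variation of 0.1 called 777, 339 and 667 loci in DR against AL, DR-AL against AL and DR-AL against DR, against 3586, 2615 and 2636 by the Z test. With the estimated dispersion, which counts differences between diets as spread and so favours fewer calls, it called 235, 60 and 311. With a fold of at least 2 the Z test called 1045, 732 and 1118. Under each of these 3 settings 0 of the 9 genes were called in either direction, and with the estimated dispersion 0 had an unadjusted p under 0.05. The share of counts on the 9 genes was 0.849%, 0.994% and 1.04% in AL, DR and DR-AL without the 10 most abundant genes, which include Muc2 and Zg16, and 1.64%, 1.95% and 2.11% over all loci. The cause of these changes was not tested beyond what each setting leaves out. Depth does not limit the 9 genes in colon, where the lowest count was 1367. The spread between mice and pools was not measured.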
